A study of Mus musculus with 3 samples.

Results

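The 10 genes described here carry iron into cells, store it, export it or sense it, and their mRNA was read in whole mouse embryos without MafF and MafK, with or without MafG. The 3 groups were MafF-/-:MafG-/-:MafK-/- embryos at E10.5 (triple null), MafF-/-:MafG+/+:MafK-/- embryos at E10.5, and MafF-/-:MafG+/+:MafK-/- embryos at E9.5 (both MafG-intact). All groups thus share the loss of MafF and MafK, and no embryo with all 3 small Maf proteins was analysed here. The small Maf proteins are bZIP factors that partner the CNC and BACH families on DNA. Each group was 1 array of RNA from 3 pooled embryos of mixed background, so differences carry no error between pools and none could be tested.

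The members were Tfrc, Trf, Slc11a2, Slc40a1, Slc25a37, Steap3, Fth1, Ftl1, Aco1 and Ireb2, found through the RefSeq accession of each probe. They had 14 probes, 13 of them well above background on every array, and 9 of the 10 genes could be measured, among 13184 measured genes in all. Steap3 had 1 probe, which was not well above background on any array, with intensities of 2.50 in the triple null pool, 3.02 in the E10.5 MafG-intact pool and 2.58 in the E9.5 pool. By the RefSeq table, Slc40a1 and Steap3 lie on chromosome 1, Aco1 on 4, Ftl1 on 7, Trf and Ireb2 on 9, Slc25a37 on 14, Slc11a2 on 15, Tfrc on 16 and Fth1 on 19. A level below is the log2 of the background-subtracted probe intensity minus the 75th percentile of its array, averaged over the probes of a gene. Levels are compared between arrays for the same probes, and levels of different genes are not read as relative amounts of mRNA. Sums of linear levels over a list add different probes, so bright probes weigh most in them. "Higher" and "lower" describe these 3 arrays.

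As a check of the labels, Mafg was not well above background in triple null embryos, where it was lower than in the E10.5 MafG-intact pool by at least 173-fold. Between 69.1% and 70.4% of probes were well above background on each array. Having 1 array a group limits the precision. The scanner software assigned signals a median error of 10.2% or 10.3%. For a difference from 1 member probe above background, the combined error was about 0.20 on the log2 scale. It was up to 0.23 for the dimmest of those probes, a probe of Slc11a2. For bright probes such as those of Fth1 and Ftl1 the error was 10% on every array, a figure assigned and not measured from replicates. That error does not cover variation between embryo pools. Xist was detected in the E10.5 MafG-intact pool alone, and Ddx3y, Eif2s3y and Kdm5d in the other pools but not in it, so sex differs between that pool and the others and its part in each difference that uses that pool cannot be told apart from genotype or stage.

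Iron travels in plasma bound to transferrin (Trf), which the transferrin receptor (Tfrc) takes into endosomes. There Steap3 reduces the iron and Slc11a2 moves it to the cytosol. Slc25a37 (mitoferrin) brings it into mitochondria for haem and iron-sulphur clusters, ferritin built of the heavy (Fth1) and light (Ftl1) chains stores it, and ferroportin (Slc40a1) exports it. The iron regulatory proteins encoded by Aco1 and Ireb2 bind iron-responsive elements, stabilising Tfrc mRNA and blocking translation of ferritin when iron is scarce, so mRNA levels leave the protein unmeasured. Red cell precursors are the main consumers of iron in the embryo, and liver and yolk sac endoderm are known sources of transferrin.

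The ferritin promoters are shown because ferritin genes are known targets of NRF2 and BACH1, partners of the small Maf proteins. Of the 10 genes, 6 had promoter windows in the RefSeq table of build GRCm38.p6 (11 windows, each from 250 bases before to 50 bases after an annotated start). Trf, Slc11a2, Slc40a1 and Slc25a37 have no entry there. The 150 bases that end just before an annotated start are given 5′ to 3′ for both ferritin genes, with each match to CCAAT or ATTGG in capitals. Fth1 has 2 of the windows, and the start shown was chosen because TATAA lies near it. The Ftl1 stretch is chr7:45459887-45460036 on the minus strand, and the Fth1 stretch is chr19:9982496-9982645 on the plus strand.
Ftl1: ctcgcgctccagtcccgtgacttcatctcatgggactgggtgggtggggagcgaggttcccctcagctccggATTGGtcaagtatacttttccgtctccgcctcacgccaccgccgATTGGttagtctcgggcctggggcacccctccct
Fth1: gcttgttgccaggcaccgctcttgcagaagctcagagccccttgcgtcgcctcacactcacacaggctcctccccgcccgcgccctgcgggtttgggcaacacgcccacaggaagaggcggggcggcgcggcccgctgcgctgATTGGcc

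Both ferritin stretches hold ATTGG, the reverse complement of CCAAT, at positions -78 and -34 for Ftl1 and at -7 for Fth1, counted back from the annotated start. In addition the letters TATAA lie at position 18 after the Ftl1 start and at position 27 after the Fth1 start, the latter by the choice of start. TATAA was found in 3 of the 11 member windows and in 17.5% of all 32851 windows. CCAAT or ATTGG was found in 4 of the 11 and in 37.4% of all, and the other Fth1 window held neither motif. The core of the antioxidant response element, TGACNNNGC or its reverse GCNNNGTCA, was found in none of the 11 member windows and in 12.4% of all windows. TGAGTCA or TGACTCA was found in none of the 11 and in 5.2% of all, and TGCTGA or TCAGCA, the outer arm of a Maf recognition element, in 2 windows of Steap3 and in 19.5% of all. TATAA was searched on the strand of the gene and the other motifs on both strands, and TGACTCA can overlap TGACNNNGC. These matches describe letters in short windows only. Sequence outside the windows was not searched, so these counts do not show whether a gene has an element elsewhere.

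The triple null pool and the E10.5 MafG-intact pool differ in MafG, on a background without MafF and MafK, and also in sex. Whether they also differed in how far they had developed was not tested. Transferrin was the 1 member at least 2-fold apart, lower in the triple null pool, and ferroportin was next at 1.68-fold lower. The other 7 measured members lay between -0.19 and 0.24 on the log2 difference scale. At least 2-fold differences, in either direction, were had by 5.45% of the 12529 genes above background on both arrays, with 0.982% higher and 4.47% lower. At 1.5-fold, Trf and Slc40a1 made 2 of 9 members, where 13.8% of all genes were that far apart. Of the 9 measured iron genes 4 lay above 0 and 5 below it, with a median log2 difference of -0.089 beside 0.058 over all genes.

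In the second comparison, triple null E10.5 against E9.5 MafG-intact, none of the 9 was at least 2-fold apart, where 0.783% of 12521 genes were (0.256% higher and 0.527% lower). At 1.5-fold, Trf was the 1 member apart, where 3.03% of all genes were. The median log2 difference of the members was -0.013, beside 0.0045 over all genes. In the last comparison, E10.5 MafG-intact against E9.5, a day of development within a genotype, again none of the 9 was at least 2-fold apart, where 5.19% of 12514 genes were (4.12% higher and 1.07% lower). At 1.5-fold, Trf (0.59) and Slc40a1 (0.60) were just apart, where 13.6% of all genes were. Neither was with normexp background correction (0.45 and 0.47) or with scaling on spike-in probes (0.56 and 0.57). Trf also fell short of 1.5-fold with other scalings, such as quantile normalization and scaling on the median of detected genes. The median there was -0.087, beside -0.046 over all genes. The 3 comparisons share arrays pairwise, so the values of a gene in them are not independent.

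**Figure D1:**
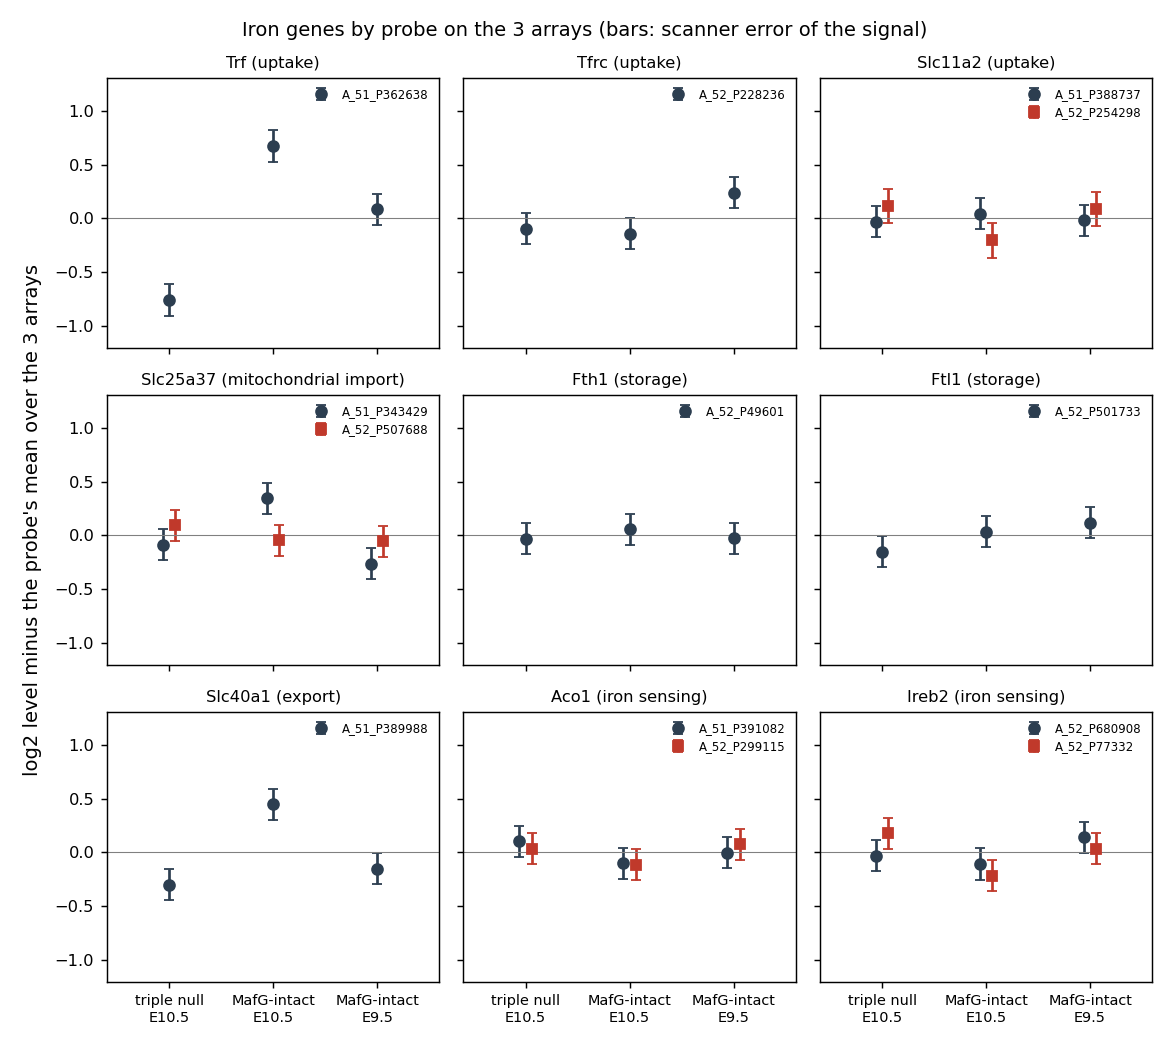
Log2 level of each probe minus its own mean over the 3 arrays (y axis, log2 units), for the 9 measured iron genes on the triple null E10.5, E10.5 MafG-intact and E9.5 MafG-intact arrays (x axis). Points are probes and bars the scanner error of the signal. Trf and Slc40a1 are highest on the E10.5 MafG-intact array, and the 2 probes of Slc25a37 part on that array.

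The uptake genes came apart from one another. Trf had an intensity of 156 on the triple null array, against 554 on the E10.5 MafG-intact array and 276 at E9.5. The triple null pool was the lowest of the 3 and the E10.5 MafG-intact pool the highest. The log2 difference was -1.43 for triple null against E10.5 MafG-intact (2.69-fold lower), and 294 of 12529 genes, or 2.35%, had a lower difference. Against E9.5 MafG-intact it was -0.84 (1.79-fold lower), and 95 of 12521 genes, or 0.759%, had a lower one. Between the MafG-intact days Trf was higher at E10.5, by 0.59 on the log2 scale. Each of these values came from 1 probe and each was more than 2 times its combined scanner error of 0.20 to 0.21. With normexp background correction the first difference was -1.07 and the second -0.63.

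Genes listed as markers of hepatoblasts, the cells of the liver bud, differed along with Trf to varying extents. Whether each of them marks the liver bud alone in whole embryos was not tested. Of 12 hepatoblast markers above background on both E10.5 arrays, 7 were at least 2-fold lower in triple null embryos and none higher, with a median log2 difference of -1.27. Trf lay inside their range, with 4 markers lower than it and 8 higher. Albumin (Alb) stood at -1.98, prothrombin (F2) at -1.83 and the fetal serum protein gene Afp at -1.26. The smallest differences were those of Rbp4 at -0.18 and the liver factor gene Hnf4a at -0.24. The fibrinogen gene Fga was above background on the MafG-intact arrays alone. The linear levels of the 13 measured hepatoblast markers, in units of the array's 75th percentile, summed to 14.5 on the triple null array, 29.5 on the E10.5 MafG-intact array and 22.5 on the E9.5 array. Afp alone made up 8.16, 19.5 and 13.5 of these sums, and without it they were 6.32, 10.01 and 8.92. In whole embryos, fewer cells of a type and less RNA per cell cannot be told apart, and the part of liver bud content in the Trf difference was not tested.

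Against the E9.5 pool, 3 of 12 hepatoblast markers were at least 2-fold lower in triple null embryos and 1 was higher, Alb at 1.02, and 3 of 5 yolk sac endoderm markers were at least 2-fold lower. With normexp 1 hepatoblast marker was lower and 0 higher, and with scaling on the median of detected genes Alb fell short of 2-fold. Trf stood at -0.84 beside Apoa1 at -3.17, Ttr at -1.71, Afp at -0.73 and the yolk sac genes Spp2 at -3.62 and Amn at -2.04. Albumin and Trf thus lay on opposite sides of 0 in this pair. Between the MafG-intact days the hepatoblast markers were mixed, with 4 of 13 at least 2-fold higher at E10.5 (2 with normexp) and 1 lower. Trf (0.59) stood beside Alb at 2.99, F2 at 1.20 and Afp at 0.52 on one side, and Ttr at -0.43, Rbp4 at -0.76 and Apoa1 at -1.89 on the other. The yolk sac genes Spp2 (-2.78) and Amn (-2.58) were lower at E10.5. For triple null against E10.5 MafG-intact, 0 of 5 yolk sac endoderm markers were at least 2-fold apart. In that pair 4 lay above 0 and 1 below, with a median of 0.23, and Trf lay below all 5. The part of yolk sac endoderm was not tested.

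**Figure D2:**
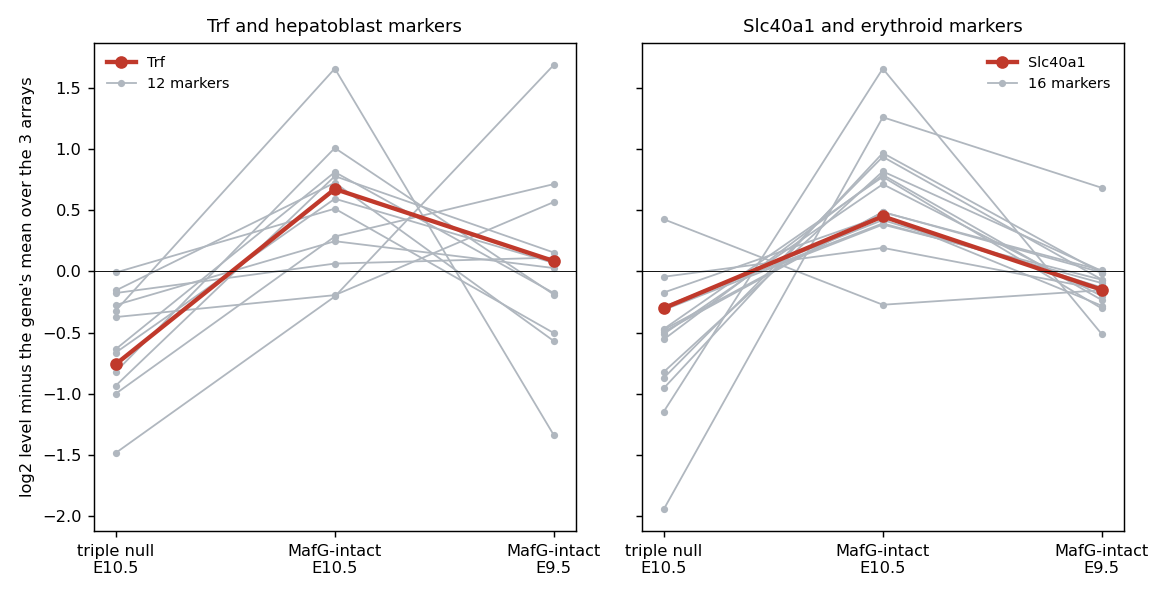
Log2 level minus the gene's mean over the 3 arrays (y axis, log2 units) on the triple null E10.5, E10.5 MafG-intact and E9.5 MafG-intact arrays (x axis), for Trf with 12 hepatoblast markers and for Slc40a1 with 16 erythroid markers. Red lines are the iron genes and grey lines the markers above background on all arrays. Both iron genes run inside the spread of the markers.

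The receptor did not follow its ligand. Tfrc was printed as 10 spots per array, whose intensities ran between 2362 and 2687 on the triple null array, between 2998 and 3425 on the E10.5 MafG-intact array and between 2923 and 3179 on the E9.5 array. After scaling, its level was 1.18 ± 0.054, 1.13 ± 0.053 and 1.52 ± 0.039 (SD over 10 spots of 1 array) in the same order. Both E10.5 pools lay close together and below the E9.5 pool. The log2 difference was 0.048 for triple null against E10.5 MafG-intact, -0.33 for triple null against E9.5 and -0.38 for E10.5 MafG-intact against E9.5. For triple null against E9.5, 5.06% of 12521 genes had a lower difference than Tfrc. Between the MafG-intact days 11.7% of 12514 genes did. The spot SD covers printing and scanning and not embryos.

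Erythroid genes, which mark the cells richest in the receptor, went another way than Tfrc. Of 16 erythroid markers, 8 were at least 2-fold lower in triple null embryos than in the E10.5 MafG-intact pool and none higher, and 15 of the 16 lay below 0. The membrane skeleton gene Epb42 stood at -1.34 and the erythroid factor gene Klf1 at -1.64. Tfrc lay above 15 of the 16 in that pair. Between the MafG-intact days Tfrc lay below all 16 markers, whose median was 0.65 with 4 at least 2-fold higher at E10.5 (1 with normexp and 2 with spike-in scaling). The summed linear level of the 16 was 8.10 on the triple null array, 20.2 on the E10.5 MafG-intact array and 11.2 on the E9.5 array. Of 5 globin genes, 4 were at least 2-fold lower in triple null embryos than at E10.5 with MafG, and their summed level was 339.8 beside 593. Neuronal markers were lower too, 8 of 8 by at least 2-fold, with sums of 8.37 in the triple null pool, 36.7 in the E10.5 MafG-intact pool and 8.59 in the E9.5 pool. The part of these cell types in the iron gene differences was not tested.

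Slc11a2, the endosomal and gut iron transporter, showed no difference that both probes shared. Its brighter probe had intensities of 718, 997 and 715 on the triple null, E10.5 MafG-intact and E9.5 MafG-intact arrays, and its dimmer probe 42.5, 44.9 and 41.1. For triple null against E10.5 MafG-intact the brighter probe gave -0.075 and the dimmer 0.32, with an average of 0.12. Against E9.5 the average was 0.0066, and between the MafG-intact days it was -0.11. Different transcripts of this gene are known to end in different exons, and which of them each probe reads is not given in the sources used here.

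The mitochondrial importer gave different answers from its 2 probes. The brighter Slc25a37 probe had intensities of 9659.5 on the triple null array, 17164 on the E10.5 MafG-intact array and 8429 on the E9.5 array. Its log2 difference was -0.43 for triple null against E10.5 MafG-intact, 0.18 against E9.5, and 0.61 between the MafG-intact days. That probe was high in the E10.5 MafG-intact pool and lower in both others, as were most erythroid markers. The dimmer probe had intensities of 459, 549 and 409 in the same order, and its differences were 0.14, 0.15 and 0.0091.

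The gap between the 2 Slc25a37 probes was 0.57 for triple null against E10.5 MafG-intact, larger than the gap in 95.9% of 3355 genes with exactly 2 probes above background on all arrays, whose median gap was 0.14. It was 0.60 between the MafG-intact days, larger than in 95.6%. In the pair of triple null and E9.5, the gap was 0.029. The gene averages of -0.15, 0.16 and 0.31 for triple null against E10.5 MafG-intact, triple null against E9.5 and the day comparison therefore average probes that differed in the first and the last of these pairs. Slc25a28, the second mitoferrin, differed by no more than 0.06 in any pair.

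**Figure D3:**
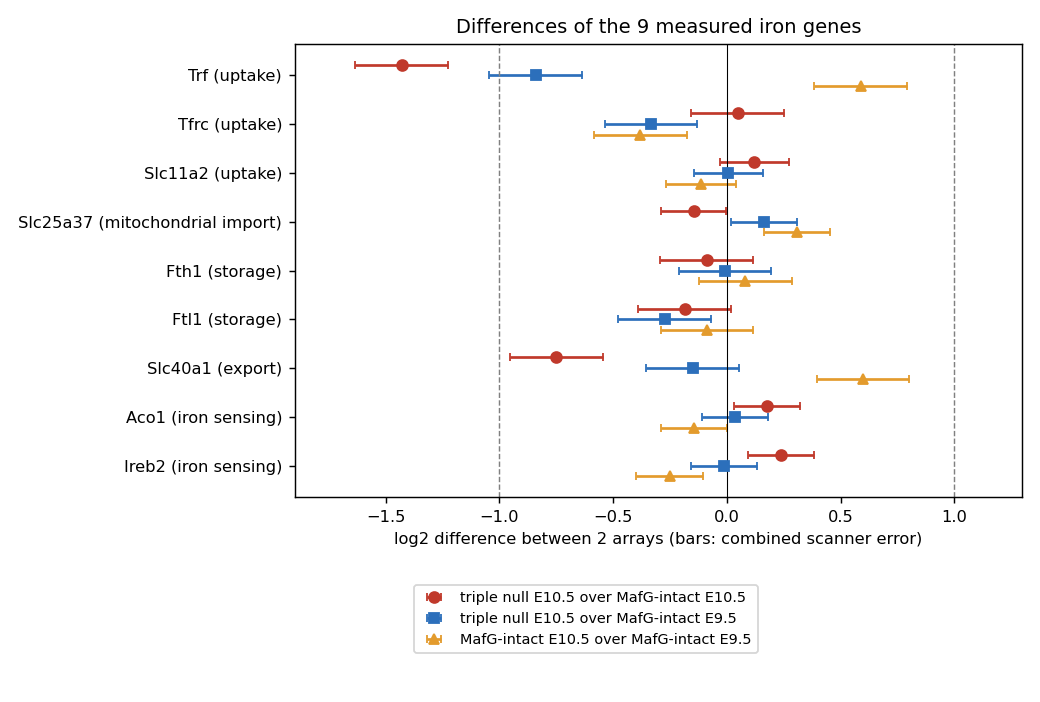
Log2 difference between 2 arrays (x axis) for each of the 9 measured iron genes (y axis), by comparison. Bars are the combined scanner error, and dashed lines mark 2-fold. Only Trf in triple null over E10.5 MafG-intact lies beyond a dashed line.

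The storage genes were bright and differed little, apart from Ftl1 against E9.5. Fth1 had intensities of 99834 on the triple null array, 139875 on the E10.5 MafG-intact array and 99045 on the E9.5 array, which after scaling gave levels of 6.53, 6.62 and 6.54. Ftl1 had intensities of 35397, 53017 and 42192, and levels of 5.04, 5.22 and 5.31. The scaled levels of either gene spanned 0.27 or less across the 3 arrays, although the E10.5 MafG-intact array was brighter as a whole. For triple null against E10.5 MafG-intact the log2 difference was -0.089 for Fth1 and -0.19 for Ftl1. Against E9.5 it was -0.0077 and -0.27, and between the MafG-intact days 0.081 and -0.087. For triple null against E9.5, 7.12% of 12521 genes had a lower difference than Ftl1, which exceeded 86.3% of genes in absolute size.

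Of these ferritin differences only that of Ftl1 against E9.5 exceeded the combined scanner error of 0.20. That error is assigned by the software and is not a measured spread. With quantile normalization the Fth1 difference was -0.32 against E10.5 MafG-intact and 0.30 between the MafG-intact days. Ferritin genes have near-identical processed copies in the mouse genome, and each was read by 1 probe, so which copies contribute is uncertain. Hmox1, haem oxygenase, which frees iron from haem, is another known target of NRF2 and BACH1. Hmox1 was 2.62-fold higher in triple null embryos than in the E10.5 MafG-intact pool and 2.69-fold higher than in the E9.5 pool, while neither ferritin gene was higher in either pair.

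Ferroportin was the second member to separate the E10.5 pools. Slc40a1, with 1 probe, had an intensity of 408 on the triple null array, against 904 on the E10.5 MafG-intact array and 447 at E9.5. The E10.5 MafG-intact pool was high and the other pools lay close together. The log2 difference was -0.75 for triple null against E10.5 MafG-intact, short of 2-fold, and 875 of 12529 genes, or 6.98%, had a lower one. Against E9.5 it was -0.15, within the scanner error, and between the MafG-intact days it was 0.60 (1.51-fold higher at E10.5), above 91.1% of genes.

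Ferroportin is known in macrophages that recycle iron, in red cell precursors and in endoderm, and it is a known NRF2 and BACH1 target in mouse macrophages. Of 10 probed macrophage markers, 4 were above background on both E10.5 arrays, and 4 of 4 were at least 2-fold lower in triple null embryos (2 with normexp), such as Tyrobp at -3.59 and Fcer1g at -1.22. Adgre1, Cx3cr1, Ptprc and Mrc1 were above background on the E10.5 MafG-intact array alone and so entered the measured genes only through it. With no filter on background, the summed linear level of all 10 was 0.177 on the triple null array, 0.623 on the E10.5 MafG-intact array and 0.198 at E9.5, of which Fcer1g made up 0.106, 0.248 and 0.114. The Slc40a1 difference lay above all 4 macrophage markers and inside the range of the erythroid markers, with 10 of 16 below it. The part of red cell precursors and macrophages in it was not tested.

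The iron sensors differed little between the E10.5 pools. Aco1, which doubles as cytosolic aconitase, had levels of 0.51, 0.33 and 0.48 on the triple null, E10.5 MafG-intact and E9.5 MafG-intact arrays. Its 2 probes gave 0.21 and 0.15 for triple null against E10.5 MafG-intact. Ireb2, whose protein is degraded when iron is plentiful, had levels of -2.99, -3.23 and -2.98 in the same order. Its 2 probes gave 0.082 and 0.39 in that pair. Both genes were lowest on the E10.5 MafG-intact array. Against E9.5 the averages were 0.035 and -0.013 for Aco1 and Ireb2. Between the MafG-intact days they were -0.14 and -0.25, with both Ireb2 probes at -0.25. The gene averages in the first pair, 0.18 and 0.24, were larger than their scanner errors of 0.14 and 0.15 but ordinary for that pair. In absolute size they exceeded those of 43.4% and 54.7% of genes.

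**Figure D4:**
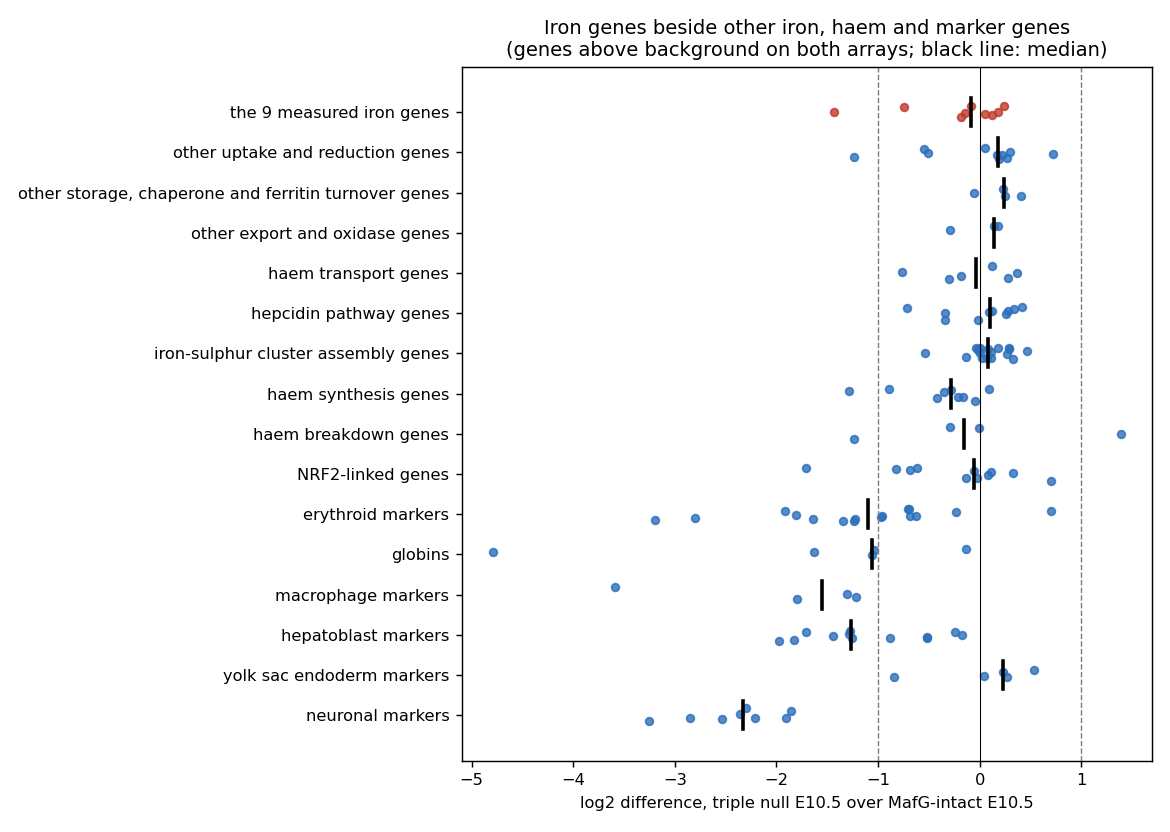
Log2 difference, triple null E10.5 over E10.5 MafG-intact (x axis), for genes above background on both arrays in each list (y axis). Points are genes, black lines the median of the drawn genes, and dashed lines mark 2-fold. Tfr2 alone lies beyond a dashed line in the other uptake, storage, export, haem transport, hepcidin and iron-sulphur lists. Alas2, Hmox1, Blvrb and Me1 do so in the haem synthesis, haem breakdown and NRF2-linked lists. Most erythroid, globin, macrophage, hepatoblast and neuronal markers lie below 0.

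Other genes of the iron pathway were read from lists. Over all genes, 5.45% were at least 2-fold apart for triple null against E10.5 MafG-intact. The share was 0.783% for triple null against E9.5 and 5.19% between the MafG-intact days. Among 10 measured uptake and reduction genes, Tfr2, the second transferrin receptor, was the 1 at least 2-fold apart. Its level was -3.30 in the triple null pool, -2.07 in the E10.5 MafG-intact pool and -3.21 in the E9.5 pool, a log2 difference of -1.24 for triple null against E10.5 MafG-intact (-0.88 with normexp). Tfr2 thus shared with Slc40a1 a high value in the E10.5 MafG-intact pool alone. It was 1.14 higher there on the log2 scale than in the E9.5 pool (0.81 with normexp). Of the storage, chaperone and ferritin turnover list, none of 4 genes above background on both E10.5 arrays was 2-fold apart. The 2 farthest were the chaperone gene Pcbp2, at -0.60 for triple null against E9.5, and Fbxl5, the iron-sensing ligase subunit that marks Ireb2 for degradation, at 0.41 for triple null against E10.5 MafG-intact and -0.48 between the MafG-intact days.

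Of 3 measured export and oxidase genes none was 2-fold apart in any pair, where between 0.783% and 5.45% of all genes were. The ferroxidase gene Heph was farthest, at 0.55 for triple null against E9.5 (0.29 with its brighter probe and 0.16 with normexp), and Mon1a stood at -0.29 for triple null against E10.5 MafG-intact. Of 6 haem transport genes none was 2-fold apart, with the mitochondrial transporter gene Abcb10 lower in triple null embryos than in either MafG-intact pool, at -0.77 and -0.67, and the folate and haem carrier gene Slc46a1 at 0.37 and -0.026.

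Genes of the hepcidin pathway and of iron-sulphur cluster assembly stayed within 2-fold in every pair. Between 0.783% and 5.45% of all genes were at least 2-fold apart by pair, so lists this short may hold none. Hepcidin controls ferroportin from the liver, and the probes of Hamp and Hamp2 were not above background on any array. Of 10 measured hepcidin pathway genes none was 2-fold apart, and the 2 farthest, Tmprss6 and Hfe, differed by 0.79 and 0.77 between E10.5 MafG-intact and E9.5. For triple null against E10.5 MafG-intact, Tmprss6 stood at -0.72 and Hfe at -0.34. The Tmprss6 probe was dim, and with normexp its differences in these pairs were 0.011 and -0.011. The Hfe difference between the MafG-intact days was 0.42 in the lowest alternative. Of 18 iron-sulphur cluster assembly genes none was 2-fold apart, with a median log2 difference of 0.079 for triple null against E10.5 MafG-intact. In that pair the ferredoxin gene Fdx1 was at -0.54 and Hspa9 at 0.46, and between the MafG-intact days they were at 0.67 and -0.48.

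Among genes of haem, enzymes of both synthesis and breakdown were at least 2-fold apart. Of 9 haem synthesis genes, 1 was at least 2-fold lower in triple null embryos than in the E10.5 MafG-intact pool, Alas2, the erythroid first enzyme, whose mRNA also carries an iron-responsive element, at -1.28. Of 4 haem breakdown genes Hmox1 was at least 2-fold higher and Blvrb, biliverdin reductase B, at least 2-fold lower (-1.24). Of 11 NRF2-linked genes, Me1, malic enzyme, was the 1 at least 2-fold apart, at -1.71. In that pair 5.45% of all genes were at least 2-fold apart. Against E9.5, Hmox1 (1.43) and Me1 (-1.45) were the genes of these 3 lists at least 2-fold apart, and Alas2 was at -0.12. There 0.783% of all genes were that far apart. Between the MafG-intact days Alas2 (1.16) and Blvrb (1.01, or 0.88 in the lowest alternative) were at least 2-fold higher at E10.5, where 5.19% of all genes were 2-fold apart.

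Trf, the 1 member at least 2-fold apart in a pair, was set beside 6146 genes that were above background on all 3 arrays and at or above the median level. By the Euclidean distance between levels centred on each gene's mean, the closest were Afp at 0.12, the homeobox gene Lhx5 at 0.17 and Klf1 at 0.18. Their differences for triple null against E10.5 MafG-intact were -1.26, -1.36 and -1.64. With 3 arrays this likeness rests on 3 values per gene.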

How the data were processed

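Total RNA of whole embryos, 3 pooled per sample, was labelled with Cy3 and read on 1-colour arrays, per the labels. All 3 arrays were on 1 slide. The authors deposited scanner output made with Agilent Feature Extraction 9.5.3.1 (protocol GE1-v5_95_Feb07, design 014868 on build mm7), per the file headers, with background-subtracted intensity on a linear scale. The deposited value table holds the same intensity rounded, within 0.497%.

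Here the log2 intensity of 43379 non-control spots was taken minus the array's 75th percentile (1078, 1420 and 1064 for triple null E10.5, E10.5 MafG-intact and E9.5 MafG-intact). Control and outlier spots were left out, spots of a probe were averaged, and a gene's level averaged its probes well above background on at least 1 array. Symbols came from RefSeq accessions of assembly GRCm38.p6 (22950 of 41170 probes had 1 symbol). A gene was counted when above background on both arrays and at least 2-fold apart. A bound uses the lowest signal well above background on the dim array. The steps were tested on simulated data.

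All members were named, and of each other iron list the genes at least 2-fold apart in a pair or, if none, the 2 farthest. The members and lists were chosen with earlier results of these data known. Alternatives were normexp (limma 3.58.1, offset 50, on median spot signals), quantile normalization, other scalings, probe choices, thresholds and the value table. Python 3.11.15, pandas 2.3.3, numpy 2.4.6, matplotlib 3.10.9 and R 4.3.3 were used.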

Additional observations from a re-analysis of the deposited data

How the results depend on the processing

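No paired analysis was possible because each group is 1 array, and no replicate could be left out. For triple null against E10.5 MafG-intact (first), triple null against E9.5 (second) and E10.5 against E9.5 MafG-intact (day comparison), counts depended on the threshold. In the first comparison 2 members were at least 1.5-fold apart and 0 at least 3-fold. At 1.5-fold the count was 1 in the second comparison and 2 in the day comparison, where normexp or spike-in scaling would leave neither gene past 1.5-fold. Quantile normalization or scaling on the median of detected genes would leave Trf short of it there. Every other alternative gave the same counts of members at least 2-fold apart, 1, 0 and 0. The member median lay between -0.17 and 0.048 in the first comparison, between -0.16 and -0.013 in the second, and between -0.11 and 0.062 in the day comparison, beside -0.089, -0.013 and -0.087. It was above 0 in the first only without Fth1 and Ftl1, and in the day comparison only with the brightest probe of each gene. Of 216 values of the 9 measured members over 8 alternatives, 206 moved by less than the scanner error. The other 10 were Trf with normexp, Fth1 with quantile normalization, and Slc11a2, Slc25a37 and Ireb2 with the brightest probe alone. Over all genes normexp gave 267, 27 and 255 at least 2-fold apart, beside 683, 98 and 650. Dim members are limited by signal over background, and Steap3 could not be read. Members with 1 probe (Trf, Tfrc, Slc40a1, Fth1, Ftl1) have no second probe to compare.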
